A study of Homo sapiens with 12 samples.

Results

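The mRNA levels of 10 genes that act at the passage from G1 into S phase were examined in a human lung adenocarcinoma cell line with and without induction of the splicing factor SRSF2. The genes were the D-type cyclins CCND1, CCND2 and CCND3, the E-type cyclins CCNE1 and CCNE2, the kinases CDK2, CDK4 and CDK6, and the inhibitors CDKN1B and CDKN2A. The members are all gene probes of the array whose RefSeq accession belongs to 1 of these 10 genes, which gave 18 probes among the probes of 16557 named genes. The rule used no measured value, but the genes were chosen with earlier results of these data known.

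The cells were H358/Tet-On/SRSF2, a single inducible clone of H358 in which SRSF2 is driven by a Tet-responsive promoter. Of the 12 1-colour Agilent whole-genome arrays, 6 carried RNA of the control condition, whose treatment label is "none". The other 6 carried RNA of cells labelled SRSF2 over-expression, after 24 hours with 1 µg/mL doxycycline. The labels name doxycycline for the over-expression arrays only, so an effect of the drug and of the transgene cannot be told apart.

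In G1, D-type cyclins bind CDK4 or CDK6 and E-type cyclins bind CDK2, and both kinds of complex phosphorylate the retinoblastoma protein. Phosphorylation releases E2F factors, which drive genes of DNA replication. CDKN1B (p27) binds cyclin-CDK complexes, and the CDKN2A locus encodes p16, which blocks CDK4 and CDK6, and p14ARF, which acts on MDM2 and p53. CDKN2A and cyclin D1 are frequently altered in lung carcinoma.

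Values are log2 signals relative to the upper quartile of their array (its 75th percentile), so a difference of 1 is a 2-fold change. They rank arrays for a given probe and not probes against each other. Over all arrays, 54.2% to 68.0% of the spots were well above background, and the upper quartile of the signal was 796 to 1100. The arrays sat on 3 slides, each with 2 arrays of both conditions. Control arrays 1 and 2, both on slide 1, stood apart, with spike-in probes 3.75 and 3.77 above the 75th percentile on the log2 scale against 2.76 to 3.23 on the other arrays. The epithelial markers EPCAM, KRT8, KRT18, KRT19 and CDH1 were well above background on all 12 arrays. The lung list held NKX2-1, NAPSA, SFTPC, SFTPA1, SFTPA2 and SFTPB, of which 5 had a probe. NKX2-1, NAPSA and SFTPC were well above background on all 12 arrays, and no other gene of that list was. PTPRC, CDH5, PDGFRB, COL1A2 and DCN, which mark leukocytes, endothelium and fibroblasts, were above background on none, whereas CD14 and PECAM1 were well above background on all 12. Sums over marker lists were taken on processed signal, not scaled between arrays. The summed signal of the endothelial and fibroblast lists overlapped between conditions. That of the lung epithelial list was 4366 to 6759 in control and 6794 to 8778 in over-expression, without overlap. The arrays' upper quartiles had a median of 1050 in control and 1055 in over-expression. The part of this difference in lung epithelial signal in the results was not tested.

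The labels were checked on SRSF2 itself. Its only probe here, A_23_P77776, averaged 3.92 ± 0.10 (SD, n = 6) in control and 2.47 ± 0.10 (SD, n = 6) in the condition labelled SRSF2 over-expression. The difference of -1.46 (SE 0.06, limma adjusted p = 1.7e-09) goes against the label. Where this probe lies in the transcript is not given in the sources used here, so whether it can detect the transgene is unknown. The word over-expression below is therefore that of the label, and every direction rests on it. Other measures of SRSF2 in these cells, such as RT-PCR and western blots, were not analysed here.

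Of the 18 member probes, 15 probes of 9 genes passed the filter on dim spots, and all 15 were well above background on all 12 arrays. Among them 8 were called higher and 2 lower on the arrays labelled SRSF2 over-expression (limma, adjusted p at most 0.05), and 5 were not called. Over all 24331 probes tested, 29.7% were called higher and 28.0% lower. The members' share called higher was 53.3% and the share called lower was 13.3%. As the members were chosen with earlier results of these data known, these shares are no test of the group. No member probe passed a 2-fold threshold in limma or in the methods' t-test (9 were higher and 2 lower at an unadjusted p under 0.05 in each), which 3.68% of all probes passed upward and 3.31% downward. The median change of the 15 probes was 0.18 against 0.01 over all probes tested.

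**Figure D1:**
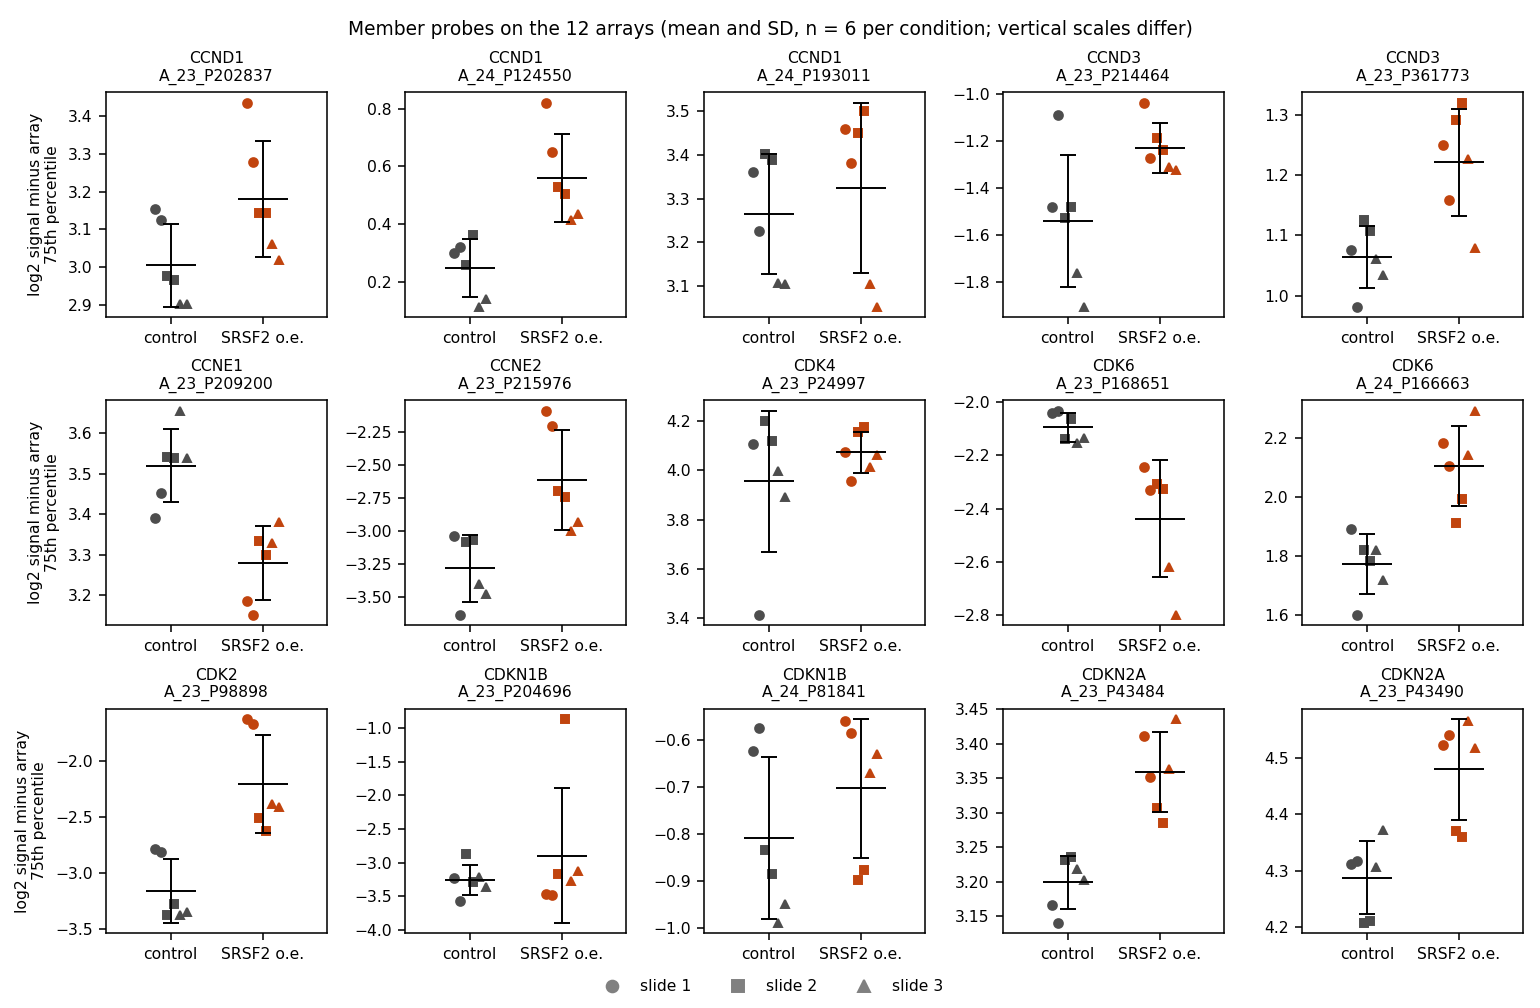
Level of each of the 15 tested member probes on the 12 arrays, as log2 signal relative to the upper quartile of each array, with the mean and SD of 6 arrays per condition as black bars and the slide as marker shape; the vertical scales differ. The CDK2 arrays of the 2 conditions stand apart, the 2 CDK6 probes move in opposite directions, and 1 over-expression array lies far above the other 5 for CDKN1B probe A_23_P204696.

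**Figure D2:**
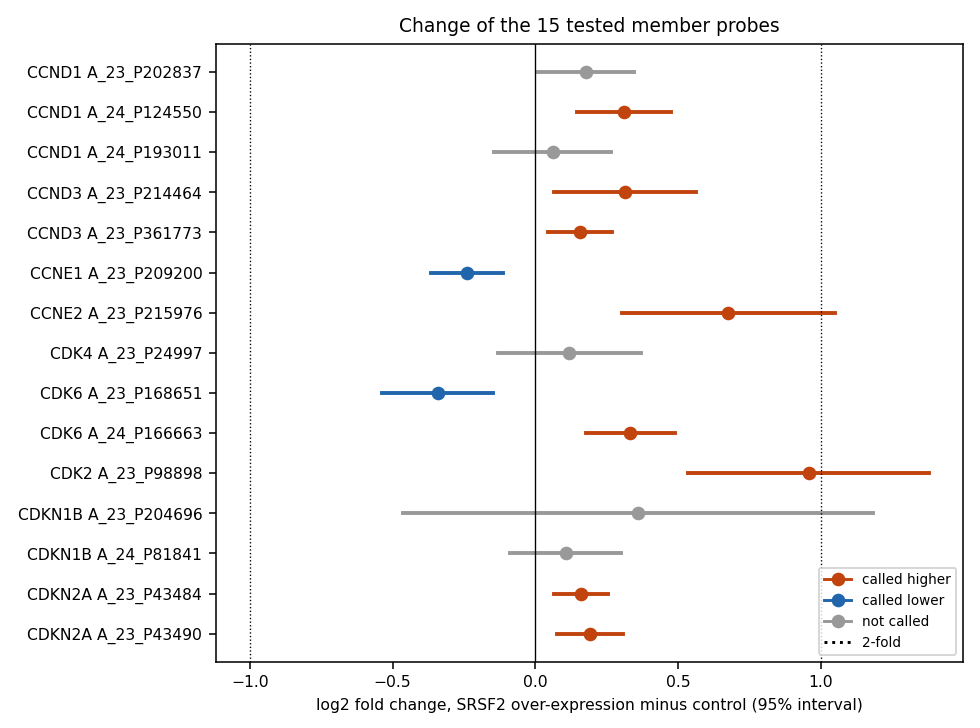
Log2 fold change of each tested member probe (SRSF2 over-expression minus control, 6 arrays each) with its 95% interval from limma, coloured by call; dotted lines mark 2-fold. CDK2 has the largest change, 0.96; the intervals of CDK2, CCNE2 and CDKN1B probe A_23_P204696 reach past 2-fold, while the points of all probes stay inside it.

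Cyclin D1, the cyclin most often linked to growth factor signals, was represented by 3 probes. For A_24_P124550 the control arrays had a lowest, median and highest value of 0.11, 0.28 and 0.36, and the over-expression arrays of 0.41, 0.52 and 0.82. The ranges did not overlap, and the probe rose by 0.31 (SE 0.08, limma adjusted p = 0.0034). It was not called without background subtraction (limma adjusted p = 0.075) or with scaling on spike-in probes (0.062). On the means of 2 arrays per slide, in a slide-blocked fit, it stayed called (limma adjusted p = 0.019). For A_23_P202837, printed as 10 spots per array, the values ran over 2.90, 2.97 and 3.15 in control and 3.02, 3.14 and 3.44 in over-expression, with overlap. Its difference of 0.18 (SE 0.08) was not called (limma adjusted p = 0.070), but it was called with the replicate block (limma adjusted p = 0.0044), with the same difference. On the means of 2 arrays per slide, in a slide-blocked fit, it was again not called (limma adjusted p = 0.076). The SD among its spots within an array had a median of 0.07, below the SD of 0.11 and 0.15 over the arrays of the 2 conditions.

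The third CCND1 probe, A_24_P193011, ran over 3.10, 3.29 and 3.40 in control and 3.05, 3.42 and 3.50 in over-expression. The difference was 0.06 (SE 0.09, limma adjusted p = 0.61). The 3 probes were compared within each array, a difference that does not depend on how arrays are scaled. A_24_P124550 minus A_24_P193011 was 0.25 higher in over-expression (exact permutation p = 0.015, adjusted p = 0.030 over 8 such pairs). A_23_P202837 minus A_24_P124550 changed by -0.13 (exact permutation p = 0.013, adjusted p = 0.030). A_23_P202837 minus A_24_P193011 changed by 0.12 (exact permutation p = 0.18, adjusted p = 0.28). With labels exchanged only within slides, the adjusted permutation p was 0.025, 0.044 and 0.037 in that order. The called probe, A_24_P124550, thus changed unequally to both other probes of the gene.

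Cyclin D3 had 2 probes, both called higher. A_23_P361773 ran over 0.98, 1.07 and 1.12 in control and 1.08, 1.24 and 1.32 in over-expression, a rise of 0.16 (SE 0.05, limma adjusted p = 0.019). A_23_P214464 ran over -1.91, -1.50 and -1.09 in control and -1.32, -1.25 and -1.03 in over-expression, a rise of 0.31 (SE 0.12, limma adjusted p = 0.033). The ranges overlapped for both probes. For A_23_P214464 the control arrays spread over slides, and the difference was 0.13, 0.29 and 0.52 on slides 1, 2 and 3. It was not called without slide 2 or slide 3 (limma adjusted p = 0.13 and 0.15) or in the methods' t-test. A_23_P361773 was not called on the means of 2 arrays per slide in a slide-blocked fit (limma adjusted p = 0.11) or without slide 1 or slide 2 (0.085 and 0.066).

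Cyclin D2 had 3 probes and none was tested. Of the 36 readings, 2 were well above background, both of A_23_P139881, with processed signals of 148 on control array 6 and 104 on over-expression array 1. No fold change is given for CCND2.

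The E-type cyclins, which activate CDK2 late in G1, differed from each other. CCNE1 ran over 3.39, 3.54 and 3.66 in control and 3.15, 3.31 and 3.38 in over-expression, without overlap. It fell by 0.24 on the log2 scale (SE 0.06, limma adjusted p = 0.0034), with -0.25, -0.22 and -0.24 on the 3 slides. CCNE2 ran over -3.64, -3.25 and -3.04 in control and -3.00, -2.72 and -2.08 in over-expression, also without overlap. It rose by 0.68 (SE 0.17, 95% interval 0.30 to 1.05, limma adjusted p = 0.0045).

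The rise of CCNE2 was uneven, with 1.20 on slide 1, 0.36 on slide 2 and 0.47 on slide 3, and over-expression array 5 lay only just above control array 1. Within arrays, CCNE2 minus CCNE1 was 0.92 higher in over-expression (exact permutation p = 0.0022, the smallest for 6 arrays against 6, adjusted p = 0.0087 over the 8 pairs). With labels exchanged only within slides, the exact permutation p was 0.0093, the smallest possible there, and 0.025 when adjusted over the 8 pairs. This comparison is free of the scaling between arrays. Its separate ranges and smallest p-values followed from the non-overlapping ranges of CCNE1 and CCNE2 in opposite directions, and are no separate support.

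CDK2, the partner of the E-type cyclins, showed the largest change of the 15 tested member probes. Its probe, A_23_P98898, ran over -3.38, -3.31 and -2.79 in control and -2.63, -2.40 and -1.63 in over-expression, without overlap. It rose by 0.96 (SE 0.19, 95% interval 0.53 to 1.38, limma adjusted p = 0.00097, exact permutation p = 0.0022, and 0.0093 within slides). The rise was 0.67 without background subtraction and 0.59 by normexp with the array's median background, and was called in both. In processed signal its arrays ran from 100 to 344, and 8.01% of all tested probes had a larger absolute change. The 10 spots of the probe had a median SD of 0.11 within an array. The rise was 1.15, 0.76 and 0.96 on slides 1, 2 and 3, and slide 1 was the highest in both conditions.

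CDK4, a kinase partner of the D-type cyclins, ran over 3.41, 4.05 and 4.20 in control and 3.96, 4.07 and 4.18 in over-expression. The difference of 0.12 (SE 0.12, 95% interval -0.13 to 0.37) was not called (limma adjusted p = 0.40), and the lowest control array was on slide 1.

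CDK6, the other partner of the D-type cyclins, gave opposite answers with its 2 probes. A_24_P166663 ran over 1.60, 1.80 and 1.89 in control and 1.91, 2.13 and 2.29 in over-expression and rose by 0.33 (SE 0.07, limma adjusted p = 0.0014). A_23_P168651 ran over -2.16, -2.10 and -2.03 in control and -2.80, -2.33 and -2.24 in over-expression and fell by 0.34 on the log2 scale (SE 0.09, limma adjusted p = 0.0055). Neither probe had overlapping ranges. The direction held on every slide, with 0.40, 0.15 and 0.45 for the first and -0.25, -0.21 and -0.56 for the second. Within arrays, A_23_P168651 minus A_24_P166663 was -3.87 ± 0.13 (SD, n = 6) in control and -4.54 ± 0.33 (SD, n = 6) in over-expression. The difference of -0.68 had an exact permutation p of 0.0022, again the smallest possible (adjusted p = 0.0087 over the 8 pairs), and of 0.0093 within slides (adjusted p = 0.025). These p-values followed from the non-overlapping ranges of the 2 probes in opposite directions, and are no separate support. No direction can be given for the gene as a whole, and the parts of the transcript that the probes detect are not given in the sources used here.

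Among the inhibitors, CDKN1B (p27) had 2 probes and neither was called. A_24_P81841, printed as 10 spots, ran over -0.99, -0.86 and -0.57 in control and -0.90, -0.65 and -0.56 in over-expression, a difference of 0.11 (SE 0.09, limma adjusted p = 0.34). A_23_P204696 ran over -3.57, -3.26 and -2.87 in control and -3.48, -3.22 and -0.87 in over-expression, a difference of 0.36 (SE 0.38, limma adjusted p = 0.44). Its highest value came from over-expression array 4, and without that array the difference was -0.05 (limma adjusted p = 0.76).

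Both CDKN2A probes were called higher, by small amounts. Neither was called on the means of 2 arrays per slide in a slide-blocked fit (limma adjusted p = 0.12 for A_23_P43484 and 0.058 for A_23_P43490) or without slide 1 (0.061 and 0.057). A_23_P43484, printed as 10 spots, ran over 3.14, 3.21 and 3.24 in control and 3.29, 3.36 and 3.44 in over-expression, without overlap, and rose by 0.16 (SE 0.04, limma adjusted p = 0.0064). A_23_P43490 ran over 4.21, 4.31 and 4.37 in control and 4.36, 4.52 and 4.56 in over-expression, with overlap, and rose by 0.19 (SE 0.05, limma adjusted p = 0.0079). Both probes carry the same accession, and which CDKN2A transcripts they detect is not given in the sources used here.

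In all, 5 member probes had every over-expression array above every control array and 2 had every one below, where 21.2% and 18.9% of all tested probes did so. All 10 called probes changed in the same direction on each of the 3 slides, as did 12 of the 15 tested. The calls were made on these same arrays, so that agreement is no separate support. Scaling on spike-in probes moved the median change of all probes by 0.21, and calls over all probes were then 77.1% upward against 51.5% in the main setting. On that scale CDK2, at 1.17 and so past 2-fold, and CCNE2, at 0.88, were called among the members. CCNE1, at -0.03, and CDK6 probe A_23_P168651, at -0.13, kept their sign but were not called. With spike-in scaling and slide 1 left out, chosen after the data were seen, the median moved by 0.019 and 50.3% of calls were upward. CCNE1 was then at -0.21 and CDK6 probe A_23_P168651 at -0.36, and neither was called.

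**Figure D3:**
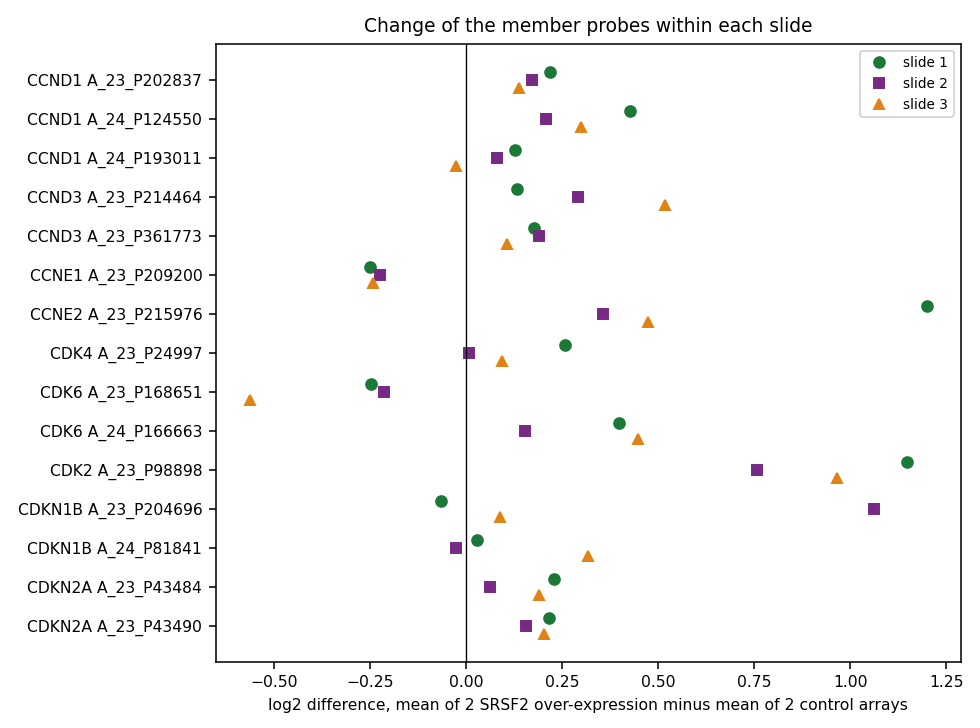
Log2 difference (mean of 2 SRSF2 over-expression arrays minus mean of 2 control arrays) of each tested member probe within slides 1, 2 and 3, without error bars because each point rests on 2 arrays per condition. All 10 called probes lie on the same side of 0 on the 3 slides, but they were called on these same arrays. CDKN1B probe A_23_P204696 lies at 1.06 on slide 2 against -0.07 and 0.09 on the others.

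Promoter sequence is shown for CCNE1 and CDK6, the genes with a probe called lower. RefSeq (GRCh38.p14) windows of 300 bases, 250 before the start and 50 after it, were at hand for 6 of the 10 genes, with 10 windows. CCND1, CCND2, CCNE2 and CDK2 had no window. None of the 10 windows held the E2F letters TTTCCCGC, TTTCGCGC, TTTGCCGC or TTTGGCGC on either strand, which 3.31% of all 35116 windows held. At so low a share, a lack in 10 windows is no result about these genes. The GC box letters GGGCGG, on either strand, were in 7 of the 10 and in 45.0% of all windows. The 10 windows were 60.3% to 81.0% G and C, against a median of 58.7% over all windows. The part of base content in the GC box share was not tested. Each sequence below is a stretch of 30 bases upstream of the start, read 5′ to 3′ on the gene's strand. The GC box letters or their reverse complement are in capitals. The last capitals of CCNE1 begin 61 bases before the start, and the capitals of CDK6 begin 62 bases before it.
CCNE1 (chr19:29811918-29811947, plus strand): gGGGCGGtgcgaGGGCGGgccggggccggt
CDK6 (chr7:92836618-92836647, minus strand): tccgccgtccctCCGCCCtccgccgctgtg
The second CDK6 window, at another annotated start, held no GC box letters. A match describes the letters and does not show that a factor binds there.

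Around these members, 7 lists of other genes of the pathway were examined, also chosen with earlier results of these data known. They held 55 genes and 83 tested probes. Of these probes 35 were called higher, 22 lower and 26 not called, or 42.2% and 26.5% against 29.7% and 28.0% over all probes tested, and their median change was 0.10.

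Other CDK inhibitors had 3 of 7 probes higher and 1 lower, with a median change of 0.10. CDKN2C (p18), an inhibitor of CDK4 and CDK6, rose by 0.59 (SE 0.06, limma adjusted p = 2.3e-06). CDKN1A (p21) rose by 0.51 on A_24_P89457, and CDKN2B (p15) by 0.36 on A_24_P360674. The other CDKN1A probe was at -0.12 and the other CDKN2B probe at 0.10, and neither was called.

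Genes of CDK activation had 1 of 6 probes higher and 2 lower, with a median of 0.01. CDC25A, a phosphatase that activates CDK2, rose by 0.58 on A_23_P121423 (limma adjusted p = 0.00097), while its other probe was at 0.02 and was not called. CCNH and MNAT1, partners of CDK7 in the CDK-activating kinase, fell by 0.49 and by 0.56 on the log2 scale.

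The RB pocket proteins had 4 of 6 probes higher and 0 lower by limma (5 and 0 at an unadjusted p under 0.05, also by the methods' t-test), with a median of 0.34. RBL2 (p130) rose by 0.44 on A_23_P26413, with its other probe at 0.18 and not called. RBL1 (p107) rose by 0.25 on A_23_P28733 and by 0.45 on A_24_P276102. The latter was well above background on 9 of the 12 arrays, with -0.04 on slide 2. RB1 was called at 0.48 on A_24_P102636, well above background on 11 arrays, and not called at -0.04 on A_23_P204850. By normexp with the array's median background, only RBL2 A_23_P26413 of the list stayed called, at 0.30 (limma adjusted p = 0.031). The E2F and DP factors had 4 of 10 probes higher and 2 lower, with a median of 0.07. E2F2 rose by 0.47 on A_23_P408955 and E2F5 by 0.41, and E2F4 fell by 0.48 on the log2 scale on A_24_P318457. The other probes of E2F2, at 0.20, and of E2F4, at -0.06, were not called.

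Ubiquitin ligases for G1 cyclins and CDKN1B had 7 of 19 probes higher and 4 lower, with a median of 0.13. SKP2, the F-box protein that marks CDKN1B for degradation, rose from 0.33 ± 0.12 to 1.69 ± 0.07 (SD, n = 6 each), a change of 1.37 (SE 0.06, limma adjusted p = 3.0e-09). CUL4A fell by 0.90 on A_24_P61467 and by 0.77 on A_23_P151471, and RNF123 fell by 0.25 on the log2 scale (limma adjusted p = 0.046).

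Transcription factors upstream of cyclin D and CDKN1B had 11 of 14 probes higher and 3 lower, with a median of 0.54. These probes came from 8 genes, of which 5 were called higher only, 2 lower only and 1 in both directions. The last was ETS2, at 0.47 on A_23_P257924, 0.60 on A_24_P382661 and -0.63 on A_24_P314179. BMI1 probe A_24_P303989, called at 0.54, was well above background on 8 arrays. By normexp with the array's median background it was not called (limma adjusted p = 0.15). CTNNB1 (beta-catenin) rose by 1.34 on A_23_P29499 and by 0.63 on A_23_P29495. FOS rose by 0.86 and JUN fell by 0.87 on the log2 scale (SE 0.27, limma adjusted p = 0.014), with overlapping ranges for JUN. FOS and JUN are partners in the AP-1 factor.

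S phase entry targets of E2F had 5 of 21 probes higher and 10 lower, with a median of -0.04. The helicase subunits MCM3 and MCM5 fell by 0.74 and by 0.70 on the log2 scale, and RRM2, a subunit of ribonucleotide reductase, rose by 0.81 on A_24_P225616 and by 0.26 on A_24_P234196. With spike-in scaling, MCM3 was at -0.53 (limma adjusted p = 0.074) and SKP2 at 1.57, and the uncalled probes CDKN1A A_23_P59210 and E2F4 A_23_P152218 changed sign, to 0.08 and 0.15.

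**Figure D4:**
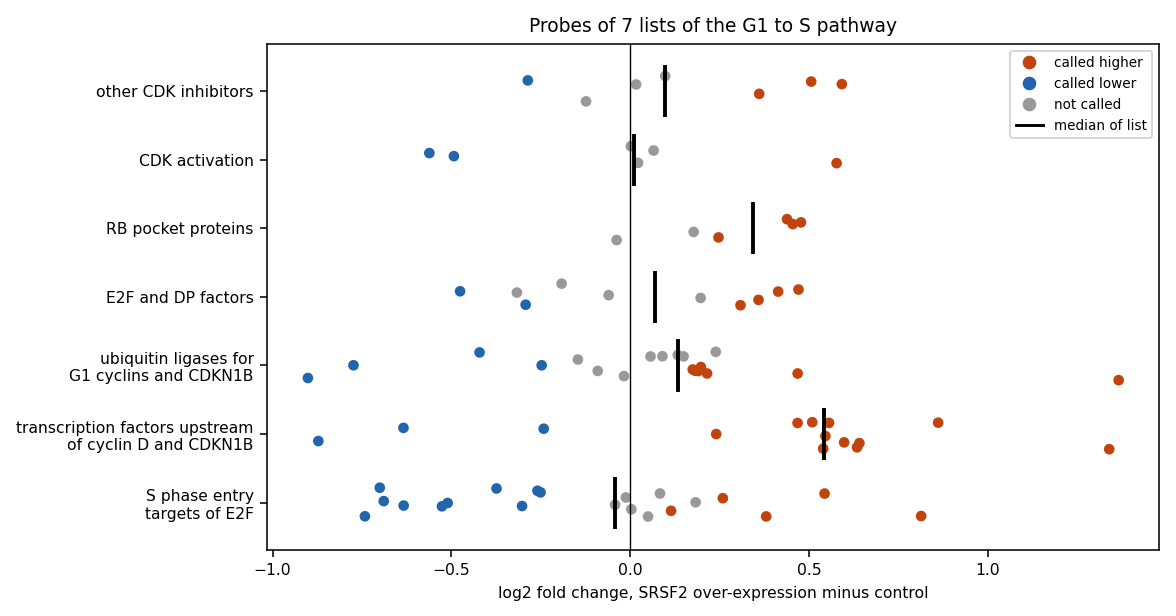
Log2 fold change (SRSF2 over-expression minus control, 6 arrays each) of the 83 tested probes of 7 lists, 1 point a probe, coloured by call, with the median of each list as a black line; vertical scatter has no meaning. SKP2 at 1.37 and CTNNB1 at 1.34 lie farthest to the right, and CUL4A at -0.90 and JUN at -0.87 farthest to the left.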

How the data were processed

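Expression was measured on 12 1-colour Agilent whole-genome arrays. The authors extracted the spots with Feature Extraction 10.7.3.1, and the deposited processed intensity of a spot is its signal after background subtraction. A log2 table was also deposited by the authors. Log2 intensity minus the array's 75th percentile, centred on each probe's median, matches it to a median difference of 0.00764, and it served as an alternative. The study's methods name GeneSpring GX, an exclusion of genes missing in over 25% of samples, and a t-test.

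Here, log2 processed intensities were averaged over the spots of a probe and expressed relative to the 75th percentile of each array, leaving out control and outlier spots. The filter required a value on 75% of the arrays or more and a signal well above background on 5 or more of the 6 arrays in either condition, and 24331 probes passed. The comparison used limma 3.58.1 (lmFit, eBayes; R 4.3.3) with no covariate, with Benjamini-Hochberg adjustment over all probes kept, and with exact two-sided permutation tests for single values (Python 3.11.15, scipy 1.17.1). A RefSeq gene table (GRCh38.p14) gave a symbol to 23958 of the 25868 probes with a RefSeq accession. The array annotation is of another build, so the only coordinates printed are those of the promoter sequences, on GRCh38.p14. The fit was tested on simulated data.

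The text names every member probe, the SRSF2 probe and, per list, up to 3 genes with the largest change among probes called and well above background on 12 arrays. Part of the leukocyte marker list is not reported here. Second probes of those genes and the RB1, ETS2 and BMI1 probes were added after their values were seen, as was the permutation test within slides. The members and lists were chosen with earlier results of these data known. Alternatives were other scalings, background corrections, filters, blocks, the methods' t-test, and slides left out. Normexp and the setting without background subtraction used median spot intensity, since the mean was not among the columns.

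Arrays with the same number deviated together (correlations of 0.28 to 0.64 over 6 pairs), as did arrays of other numbers on the same slide (0.32 to 0.66), and so the numbers pair arrays through their slide. The study used 2 arrays per labelling without saying which. The 6 arrays of a condition are therefore not 6 independent replicates, and p-values and SDs measure technical spread in part. The number of arrays limits the precision.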

Additional observations from a re-analysis of the deposited data

Results flagged for a closer look

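In the group of 6 arrays labelled SRSF2 over-expression, array 4 lay far from the others for CDKN1B probe A_23_P204696, at -0.87 against -3.48 to -3.13. The gap to the nearest array was 0.87 of the whole range, above the critical value of 0.625 for 6 arrays. On the same array the other CDKN1B probe, A_24_P81841, was at -0.88, between the lowest and highest over-expression arrays. Of 30 groups of arrays examined, 1 was flagged in this way, and chance flags about 1 in 20.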

How the results depend on the processing

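The main setting called 8 member probes higher and 2 lower, 35 and 22 probes of the pathway lists, and 7234 and 6808 of all 24331 probes tested. With the replicate block (paired arrays) the counts were 9 and 2, 38 and 24, and 8290 and 7708 in the same order. CCND1 probe A_23_P202837 was the member whose call changed, a call lost on the means of 2 arrays per slide in a slide-blocked fit (limma adjusted p = 0.076). With normexp background correction, limma called 0 and 0 member probes (1 and 0 at an unadjusted p under 0.05), and 8 and 1 list probes. Of all probes it then called 1410 higher and 1409 lower. In that fit the lowest difference between a spot and its surround was -65463, and the fitted background mean ran from -1543 to 7.32. Normexp with the array's median background, an alternative added after seeing the data, called 5 member probes higher and 2 lower, and 5907 and 6438 of all probes. Scaling on spike-in probes gave 2 and 0 member probes (5 and 0 unadjusted), 23 and 2 list probes, and 5031 and 1497 of all probes. Chosen after the data were seen, that scaling with slide as a block gave 10 and 0, 46 and 13, and 10367 and 3562. Without slide 1, also chosen then, it gave 3 and 0, 14 and 8, and 3184 and 3145. The mean of 2 arrays per slide as 1 replicate gave 5 member probes higher with slide as a block, and without the block, chosen after the data were seen, 3 and 0 (4 and 2 unadjusted), with 21 list probes higher. Of all 24292 probes tested there, 6891 and 6432 were called with the block, and 4814 and 4677 without it. Leaving out a slide gave 6 and 2 member probes each time. Of all probes, 6478 and 6381 were called without slide 1, 7098 and 7060 without slide 2, and 6079 and 5669 without slide 3. CDK2 and CCNE2 lost their calls with normexp on the local background, at 0.21 and 0.02, and in no other setting tried. CDK2 passed 2-fold with spike-in scaling (1.17), with or without slide as a block, and with slide 2 (1.06) or SRSF2 over-expression replicate 4 (1.04) left out. It was 0.67 without background subtraction and 0.59 by normexp with the median background, where CCNE2 was 0.51 and 0.43, against 0.96 and 0.68 in the main setting.

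Signs reversed for probes that were not called: CCND1 A_24_P193011 was -0.01 without background subtraction and -0.0021 with the median-background normexp, CDKN1B A_23_P204696 was -0.16 with normexp and -0.05 (-0.045) without SRSF2 over-expression replicate 4, and CDKN1B A_24_P81841 was -0.0003 without slide 3. The causes were not tested.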
